A study of Mus musculus with 8 samples.

Results

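Matrix metalloproteinases and their Timp inhibitors were followed here in cultured mouse mesenchymal stromal cells in which Irf7 was silenced. The members were 10 genes (Mmp2, Mmp3, Mmp9, Mmp10, Mmp11, Mmp13, Mmp14, Timp1, Timp2 and Timp3), found by gene symbol in the probe annotation, each with 1 probe set, among 19505 genes measured. The cells came from the inguinal fat pad of male FVB mice aged 12 months, and all of them had been infected with the lentiviral vector pLKO.1. The vector was empty on 2 arrays, carried a scramble hairpin on 2 arrays, and carried a hairpin against IRF7 (shIRF7) on 4 arrays. The series asks about IRF7, a transcription factor of the interferon response, in the ageing of these cells. No source used here says whether replicates were separate mice, cultures or infections, so the p-values reflect array-to-array spread alone, and that spread may be technical.

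Matrix metalloproteinases are zinc-dependent enzymes that cut collagens, gelatin, proteoglycans and other proteins outside the cell. They are made as inactive proenzymes, and Timp proteins block the active site once it is exposed. Stromal cells of connective tissue are a main source of both, and several secreted members are known as part of the secretory profile of senescent fibroblasts. Gene activity was read as a log2 value per probe set, summarised by RMA (background correction, normalization between arrays and probe summary). A value is compared only between arrays, never between genes, because probe sets differ in brightness.

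Of the 10 members, 0 rose or fell in shIRF7 against both controls, at an adjusted p of 0.05 in limma (Benjamini-Hochberg over all genes). Across all genes 0.0308% passed. Without adjustment 2 members had p under 0.05, Mmp10 and Timp3, both lower in shIRF7, where 8.12% of all genes did. In 0 members did the 4 shIRF7 values all fall under the lowest control, against 2.8% of all genes, and in 0 did they all lie above, against 2.58%. The member differences ran from -2.14 for Mmp3 to 0.64 for Mmp14 on the log2 scale, with a median of -0.29 beside 0.0017 over all genes. Of the 10, 8 were below 0, against 9694 of 19505 genes. Those 8 include Mmp3, Mmp9, Mmp10 and Mmp13, which were under the 95th percentile of the negative control probe sets on most or all arrays. Per array, 31.6% to 36.8% of all genes exceeded that percentile. Mmp10 and Mmp13 were also under the negative control median on every array. Mmp9, in contrast, reached 7.84 in shIRF7 replicate 2, where that median was 4.56. The spread between arrays of a group was wide beside the member differences. Mmp3, Mmp9 and Mmp11 spanned 6.78, 5.49 and 5.27 on the log2 scale over the 8 arrays. In such bulk RNA, fewer cells making a transcript and less of it per cell cannot be told apart.

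**Figure D1:**
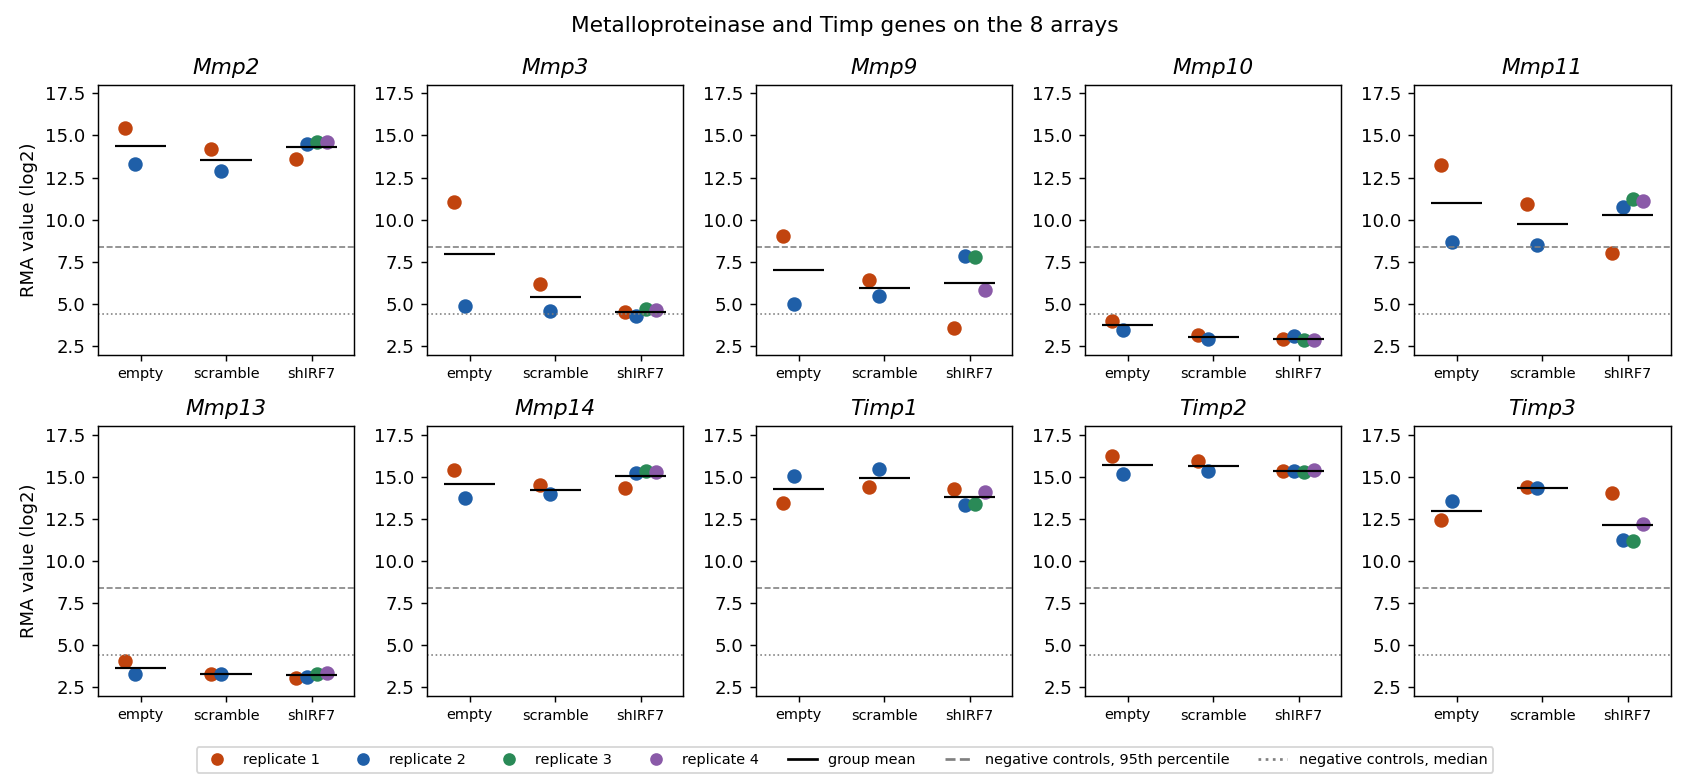
RMA values (log2) of the 10 genes by group, with points coloured by replicate number, bars at group means, and dashed and dotted lines at the mean 95th percentile (8.39) and median (4.40) of the negative control probe sets. Mmp3 stood at 11.05 on 1 empty vector array and at 4.27 to 6.17 elsewhere, while Mmp10 and Mmp13 lay below the dotted line on every array.

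Replicate numbers carried a difference of their own. Medians of the negative control probe sets were 4.18 to 4.26 on the arrays numbered 1 and 4.55 to 4.56 on those numbered 2, with 4.54 and 4.33 for shIRF7 replicates 3 and 4. Differences between arrays of the same number are therefore given beside the pooled ones. They describe single shIRF7 arrays, and whether equal numbers mark pairs is not known. Deviations from group means correlated at -0.31 to -0.16 between same-numbered control and shIRF7 arrays. Across all genes the SD of the difference between shIRF7 replicates was 0.32 for replicates 2 and 3 and 0.50 from each of those to replicate 4. It was 0.54 to 0.71 between replicate 1 and the others. The knockdown itself was present on each shIRF7 array: Irf7 measured 9.55 to 9.76 in the controls and 4.42, 5.66, 6.47 and 6.79 in shIRF7 replicates 1 to 4. Its difference from both controls was -3.79 (limma adjusted p = 0.0692), so even the targeted gene did not pass 0.05. A count of 0 at this threshold therefore does not show that the members were unchanged. Among stromal markers Col1a1 (15.56 to 16.99) and Pdgfrb (14.74 to 15.13) were bright on all arrays, while Nt5e, a surface marker of mesenchymal stromal cells, was at background (2.68 to 3.07) and Thy1, another, ranged from 4.87 to 9.54. The mean of the 7 stromal markers measured was 11.29 to 12.61 in the controls and 10.99 to 11.62 in shIRF7, with a median difference of -0.42. At an unadjusted p under 0.05, 3 of the 7 were lower in shIRF7 (Thy1, Cd44 and Col1a1), where 800 of 19505 genes were. After adjustment 0 of these markers passed. Their part in the member values was not tested. Of the 7 macrophage, 6 neutrophil and 6 endothelial markers measured, 0 had a mean above the 95th percentile of the negative controls. The mean of the macrophage markers was 3.84 to 4.23 in the controls and 3.89 to 4.15 in shIRF7, that of the neutrophil markers 3.72 to 3.83 and 3.57 to 3.72, and that of the endothelial markers 3.64 to 4.17 and 3.80 to 4.27. Ptprc, the common leukocyte marker, measured 3.36 to 4.15.

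The promoters of 8 members were found in a RefSeq-derived table (build GRCm38.p6). Those of Mmp3, Mmp10 and Mmp13 are shown because the genes lie in 1 run of Mmp genes on chromosome 9. Those of Mmp11 and Mmp14 are shown as examples from outside that run. Each line gives the 120 bases before the annotated start, 5′ to 3′, and capitals mark the AP-1 letters TGAGTCA or their reverse complement TGACTCA, the sequence known to bind Fos and Jun proteins.
Mmp3, chr9:7445702-7445821, plus strand: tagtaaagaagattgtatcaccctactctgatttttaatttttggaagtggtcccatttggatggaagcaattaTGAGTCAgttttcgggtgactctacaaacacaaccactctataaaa
Mmp10, chr9:7502222-7502341, plus strand: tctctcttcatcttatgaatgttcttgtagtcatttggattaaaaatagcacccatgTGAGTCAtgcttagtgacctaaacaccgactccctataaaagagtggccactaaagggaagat
Mmp13, chr9:7272394-7272513, plus strand: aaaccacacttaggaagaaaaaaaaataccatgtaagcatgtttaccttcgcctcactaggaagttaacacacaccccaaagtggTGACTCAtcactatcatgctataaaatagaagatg
Mmp11, chr10:75932503-75932622, minus strand: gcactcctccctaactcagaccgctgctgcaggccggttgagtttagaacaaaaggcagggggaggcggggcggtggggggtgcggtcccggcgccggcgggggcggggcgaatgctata
Mmp14, chr14:54431478-54431597, plus strand: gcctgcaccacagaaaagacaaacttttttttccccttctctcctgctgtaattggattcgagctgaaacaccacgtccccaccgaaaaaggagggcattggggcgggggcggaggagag

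In the 250 bases before the start, searched on both strands, the AP-1 letters occurred in 3 of the 8 member promoters (Mmp3, Mmp10 and Mmp13), against 4.46% of 32851 promoters in the table. The Ets letters AGGAAG, known to bind Ets factors, occurred in 5 of 8 (Mmp3, Mmp13, Mmp14, Timp1 and Timp3), against 29.5%, and no match of theirs overlapped an AP-1 match. The interferon response motif (a pair of GAAA separated by any 2 bases), the kind of sequence that interferon regulatory factors bind, occurred in 1 of 8 (Mmp13, from 146 to 137 bases before the start and so outside the stretch shown), against 2.98%. A match is a description of the sequence and not a measured binding site.

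The stromelysins and collagenase on chromosome 9 were mostly at background. Mmp3, a stromelysin that cuts proteoglycans and activates other proenzymes, measured 11.05 and 4.87 in empty vector, 6.17 and 4.61 in scramble, and 4.51, 4.27, 4.71 and 4.66 in shIRF7. A single array, empty vector replicate 1, was high, and scramble replicate 1 was the next. The other values lay between 4.27 and 4.87, and the groups overlapped through scramble replicate 2. Only that high value was above the background limit, the negative controls' 95th percentile on its array.

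The pooled difference of Mmp3 was -2.14 (SE 1.16, 95% interval -4.83 to 0.55), with limma adjusted p = 0.716. It was -4.10 within replicate 1 and -0.47 within replicate 2, and -0.59 without empty vector replicate 1 or -3.69 without empty vector replicate 2. Against empty vector alone the difference was -3.42 (limma adjusted p = 0.827), and against scramble -0.86 (limma adjusted p = 0.974). Without empty vector replicate 2, which leaves the high array as the only empty vector sample, the difference from empty vector was -6.52 and passed limma at adjusted p = 0.0333. Without empty vector replicate 1 it was -0.33. Across the alternatives this was the only call among the member differences, and there 1 array stood for its group, assumed to vary like the others.

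Mmp10, the second stromelysin, measured 4.02 and 3.47 in empty vector, 3.15 and 2.92 in scramble, and 2.93, 3.09, 2.85 and 2.89 in shIRF7. All 8 values were below the median of the negative controls on their array, so the difference of -0.45 (SE 0.16, limma adjusted p = 0.546) has no reading as a change in expression. Mmp13, the collagenase of the set, measured 4.06 and 3.28, 3.29 and 3.29, and 3.09, 3.10, 3.28 and 3.37 in the same order of groups. Its values also lay under those medians, and its difference was -0.27 (limma adjusted p = 0.802), or -0.08 without empty vector replicate 1 and -0.47 without empty vector replicate 2. Of 10 protein-coding Mmp genes in the chromosome 9 run, 9 were measured, and 1, Mmp3, exceeded the negative control percentile on any array. Mmp1a, Mmp1b, Mmp7, Mmp8, Mmp12 and Mmp20 reached at most 4.42.

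The gelatinases differed in level over background. Mmp2, the constitutive gelatinase of stromal cells, was bright throughout: 15.43 and 13.34 in empty vector, 14.20 and 12.89 in scramble, and 13.60, 14.47, 14.64 and 14.61 in shIRF7. The shIRF7 values lay inside the range of the controls. The difference was 0.37 (SE 0.51, 95% interval -0.82 to 1.55), with limma adjusted p = 0.919. It was -1.22 within replicate 1 and 1.36 within replicate 2.

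Mmp9, the inducible gelatinase, measured 9.04 and 4.99 in empty vector, 6.41 and 5.49 in scramble, and 3.56, 7.84, 7.80 and 5.82 in shIRF7. The highest and the lowest of the 8 arrays both carried the replicate number 1, in different groups. Only empty vector replicate 1 exceeded the negative control percentile. The difference was -0.23 (SE 1.18, 95% interval -2.96 to 2.5, limma adjusted p = 0.981). Replicate 1 alone gave -4.17 and replicate 2 alone 2.60. It turned to 0.78 without empty vector replicate 1.

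Mmp11 is an unusual stromelysin that furin activates inside the cell and that stromal fibroblasts make around tumours. It measured 13.27 and 8.70 in empty vector, 10.95 and 8.53 in scramble, and 8.01, 10.75, 11.24 and 11.13 in shIRF7. The arrays fell into a bright set (empty vector 1, scramble 1 and shIRF7 replicates 2 to 4) and a dim set (empty vector 2, scramble 2 and shIRF7 1), each holding all 3 groups. Scramble replicate 2 lay just under its negative control percentile and the other 7 arrays above theirs. The difference was -0.08 (SE 1.16, 95% interval -2.77 to 2.61, limma adjusted p = 0.992). It was -4.11 within replicate 1 and 2.14 within replicate 2, and moved to 1.06 without empty vector replicate 1 and to -1.22 without empty vector replicate 2.

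Mmp14, the membrane-anchored enzyme that activates the Mmp2 proenzyme at the cell surface, measured 15.42 and 13.72 in empty vector and 14.51 and 13.98 in scramble. In shIRF7 it measured 14.33, 15.23, 15.36 and 15.27. Replicates 2 to 4 of shIRF7 exceeded 3 of the 4 controls, and empty vector replicate 1 was the brightest of all. The difference, the most positive of the 10, was 0.64 (SE 0.40, 95% interval -0.30 to 1.58, limma adjusted p = 0.761), or 1.56-fold higher. Without empty vector replicate 1 it was 1.07, and without empty vector replicate 2 it was 0.21. It was -0.64 within replicate 1 and 1.39 within replicate 2.

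Mmp2 and Mmp14 had closely matched profiles. The root mean square difference between their log2 values over the 8 arrays, each gene centred on its mean, was 0.32, the smallest among the 15 pairs of the 6 brighter members (Mmp2, Mmp11, Mmp14, Timp1, Timp2 and Timp3). That of Mmp11 and Timp3, the largest, was 2.59. This is a description over 8 arrays, and genes that vary little are close by this measure whatever their direction.

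Timp1, a secreted inhibitor that responds to growth factors and inflammation, measured 13.42 and 15.07 in empty vector, 14.37 and 15.45 in scramble, and 14.29, 13.31, 13.38 and 14.10 in shIRF7. It was high on the control arrays numbered 2 and low on empty vector replicate 1 and shIRF7 replicates 2 and 3, so the groups overlapped. The difference was -0.81 (SE 0.43, 95% interval -1.82 to 0.20, limma adjusted p = 0.713). Without empty vector replicate 1 it was -1.22, and without empty vector replicate 2 it was -0.39. The difference within replicate 1 was 0.40 and that within replicate 2 was -1.95.

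Timp2, which bridges Mmp14 and the Mmp2 proenzyme as well as inhibiting both, was the steadiest of the brighter members. It measured 16.23 and 15.18 in empty vector, 15.91 and 15.33 in scramble, and 15.34, 15.36, 15.29 and 15.40 in shIRF7. The 4 shIRF7 arrays spanned little (SD 0.048), and the controls more (SD 0.49), with both arrays numbered 1 above all others. The difference was -0.32 (SE 0.25, 95% interval -0.89 to 0.25, limma adjusted p = 0.828). It was -0.05 without empty vector replicate 1 and -0.58 without empty vector replicate 2. Replicate 1 alone gave -0.73 and replicate 2 alone 0.10.

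Timp3, an inhibitor held in the matrix that also blocks ADAM17 and several ADAMTS proteases, had the lowest shIRF7 values relative to the controls among the brighter members. It measured 12.41 and 13.53 in empty vector, 14.38 and 14.34 in scramble, and 14.02, 11.22, 11.17 and 12.20 in shIRF7. Replicates 2 to 4 of shIRF7 lay below all 4 controls, while replicate 1 lay above both empty vector arrays. The difference was -1.51 (SE 0.63, 95% interval -2.98 to -0.04), or 2.85-fold lower, and did not pass after adjustment (limma adjusted p = 0.606). It was 0.63 within replicate 1 and -2.71 within replicate 2, and -2.13 without shIRF7 replicate 1 (limma adjusted p = 0.0954).

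Set against each control group alone, 0 of the 10 members passed. Against scramble 0.00513% of all genes passed, and 1 member, Timp3, had an unadjusted p under 0.05, where 6.14% of all genes did. Timp3 differed from scramble by -2.20 (95% interval -4.00 to -0.40, limma adjusted p = 0.72) and from empty vector by -0.82 (95% interval -2.62 to 0.98, limma adjusted p = 0.958). Against empty vector 0% of all genes passed, and 2 members, Mmp3 and Mmp10, had an unadjusted p under 0.05, where 5.84% of all genes did. Mmp2, Mmp9 and Mmp11 differed from scramble by 0.78, 0.31 and 0.54 and from empty vector by -0.05, -0.76 and -0.70, with intervals that span 0. The comparisons share the shIRF7 arrays, so they are not independent.

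The controls were also set against each other. Scramble against empty vector had 0 members and 0% of all genes past the threshold, and 1 member, Mmp10, at an unadjusted p under 0.05, where 1.93% of all genes were. The differences of Timp3 (1.39, 95% interval -0.69 to 3.47) and Mmp3 (-2.57, 95% interval -6.38 to 1.24) had intervals that span 0 and reach past the differences of shIRF7 from both controls in size. With 2 arrays in each control group, the intervals do not show that the controls were alike.

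**Figure D2:**
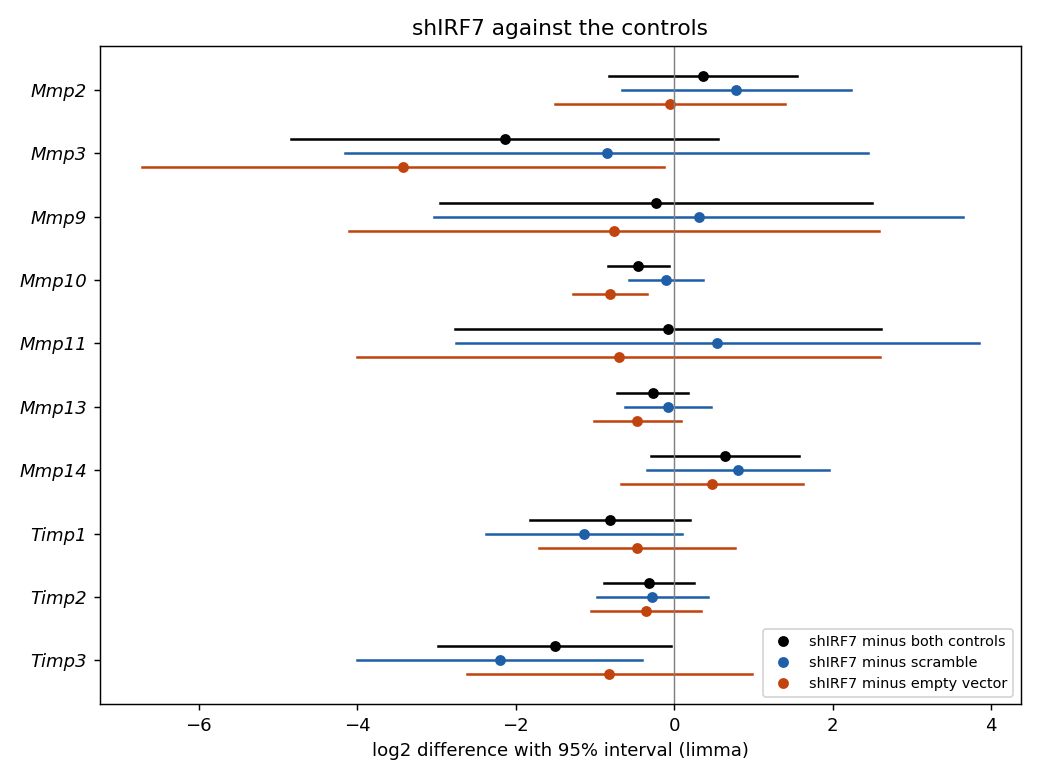
Log2 differences with 95% limma intervals for shIRF7 minus both controls, minus scramble and minus empty vector, 1 row per gene. The intervals of Mmp3, Mmp9 and Mmp11 are the widest, and that of Timp3 against both controls ends at -0.04.

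Differences from controls of the same replicate number were often of opposite sign, in the members as in genes at large. They were opposite between numbers 1 and 2 in 7 of 10 members and in 6 of the 6 brighter members, where 60.6% of all genes were. Among the 6 brighter members, replicate 1 was above replicate 2 in both control groups in 4 (Mmp2, Mmp11, Mmp14 and Timp2), where 37% of all genes were, and Timp1 was below in both, as in 31.9% of all genes. Timp3 was mixed, as in 30.8%. In Mmp2, Mmp9, Mmp11 and Mmp14 shIRF7 ran the other way, with replicate 1 below replicate 2 by 0.87, 4.29, 2.74 and 0.91. For Mmp11 replicate 1 exceeded replicate 2 by 4.58 in empty vector and by 2.43 in scramble.

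**Figure D3:**
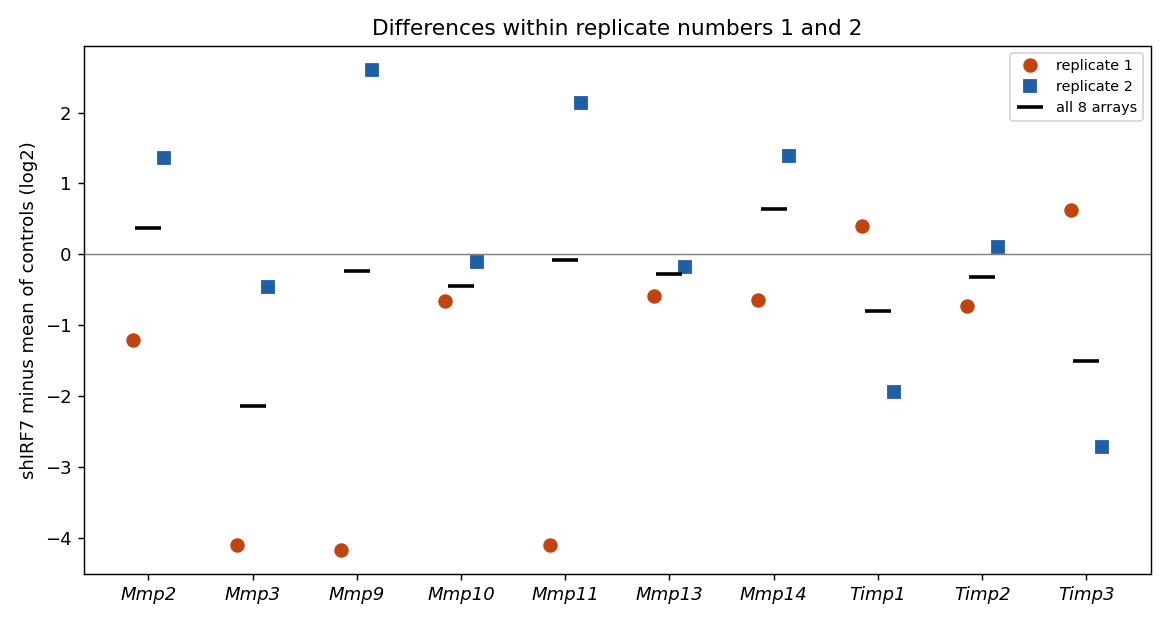
The shIRF7 value minus the mean of both controls (log2) within replicate numbers 1 and 2, with the pooled difference over 8 arrays as a bar. Mmp2, Mmp9, Mmp11 and Mmp14 lie below 0 in replicate 1 and above 0 in replicate 2, and Timp1 and Timp3 the reverse.

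Proliferation genes followed the same arrays. The mean of the 9 genes measured of 10 (such as Mki67, Top2a and Cdk1) was 9.35 and 13.51 in empty vector, 11.53 and 13.57 in scramble, and 12.83, 11.64, 11.71 and 12.30 in shIRF7. It was lowest on empty vector replicate 1, where Mmp2, Mmp3, Mmp9, Mmp11, Mmp14 and Timp2 were highest. It was highest on the control arrays numbered 2, where Timp1 was highest. The list was added with these results known, and its part in the member values was not tested.

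**Figure D4:**
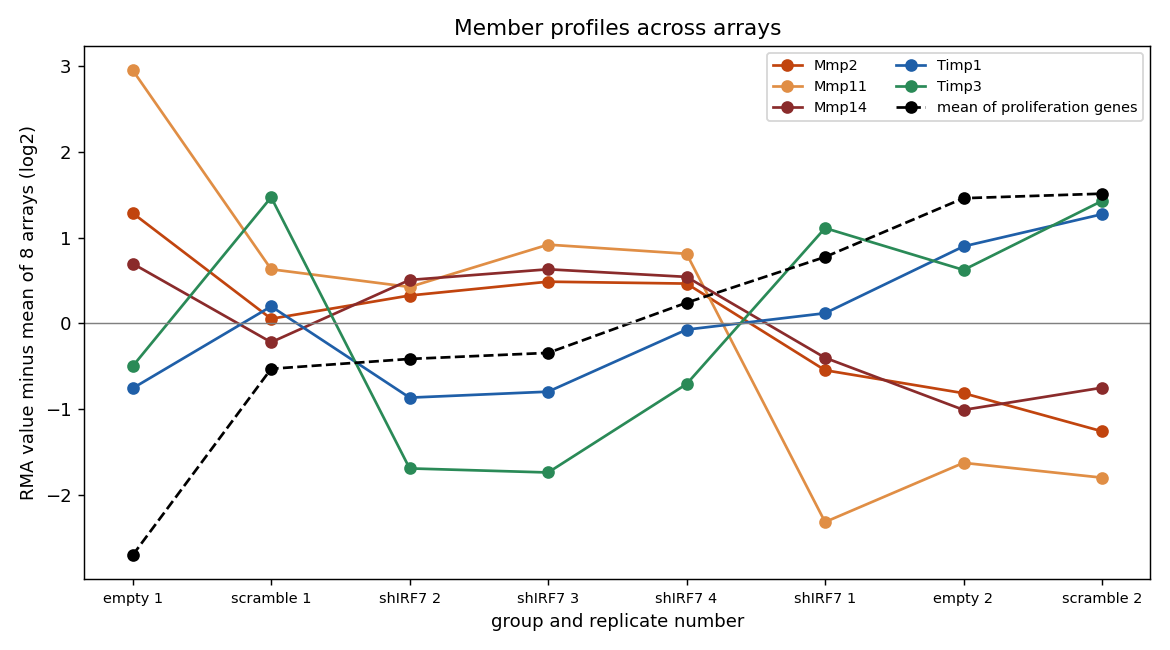
Values of 5 members and the mean of 9 proliferation genes, each minus its mean over the 8 arrays (log2), with arrays ordered by rising proliferation mean. Mmp2, Mmp11 and Mmp14 are below 0 on the 3 arrays at the right, where Timp1 and Timp3 are above 0.

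Other genes of the pathway also gave 0 calls. In lists of related genes 0 of 115 measured genes passed over all genes in shIRF7 against both controls in limma, while 7 lower and 5 higher had an unadjusted p under 0.05, where 8.12% of all genes did. The groups did not overlap in 9 genes, with shIRF7 the lower in 5 (2.8% of all genes) and the higher in 4 (2.58% of all genes). Among the other matrix metalloproteinases, 2 of 14 had a mean above the negative control percentile. Mmp19, a metalloproteinase of basement membrane substrates, measured 13.76 to 14.05 in the controls and 12.69, 14.10, 14.23 and 13.63 in shIRF7 (difference -0.27), and Mmp23 differed by -0.21. Mmp21, named after its values were seen because all its shIRF7 values lay below the controls, reached at most 3.38 on every array, within background.

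Of the 8 other inhibitors and inhibitor-like proteins, 6 differed below 0 and 0 passed. Reck, a membrane-anchored inhibitor of metalloproteinases, was higher on every shIRF7 array. It measured 9.70 and 8.66 in empty vector, 9.93 and 8.77 in scramble, and 10.13, 10.03, 10.32 and 10.44 in shIRF7. The difference was 0.96 (SE 0.31) and did not pass (limma adjusted p = 0.489). The difference within replicate 1 was 0.31 and that within replicate 2 was 1.32. Sparc, a matrix glycoprotein, differed by -0.07.

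Genes that activate, anchor or clear metalloproteinases had a median difference of -0.29 over 13 measured genes. Cd44, a hyaluronan receptor that can hold Mmp9 at the cell surface, measured 13.08 to 14.93 in the controls and 13.75, 12.44, 12.68 and 12.61 in shIRF7. Its difference was -1.34 (limma adjusted p = 0.525). Replicate 1 alone gave 0.21 and replicate 2 alone -2.44. Itgb3, the beta chain of the alpha-v integrin, differed by 1.23 (limma adjusted p = 0.639). The difference within replicate 1 was -0.22 and that within replicate 2 was 2.29.

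In the plasminogen activator system, whose product plasmin activates several proenzymes, the median was -0.22 over 9 measured genes. Plgrkt, a plasminogen receptor, differed by 0.35. Serpinb2, an inhibitor of plasminogen activators that was named after its values were seen, measured 7.26 and 11.57 in empty vector, 8.05 and 10.74 in scramble, and 7.80, 4.84, 5.44 and 6.90 in shIRF7. Only the control arrays numbered 2 were above the background limit, and all 4 shIRF7 arrays were below it. The fitted difference was -3.16 (SE 1.10, limma adjusted p = 0.526), and the gap was widest against the control arrays numbered 2. The control arrays numbered 1 (7.26 and 8.05) were also below that limit. Replicates 2 to 4 of shIRF7 lay below both of them, and replicate 1 lay between them. Plaur, the urokinase receptor, differed by -0.998, with 2.84 within replicate 1 and -4.22 within replicate 2.

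ADAM and ADAMTS proteases, relatives of the family, had a median of 0.08 over 17 measured genes. In 3 of the 17 all shIRF7 values exceeded all controls, against 2.58% of all genes. These were Adamts12 and Adam19, named by the rule for named genes, and Adam10, named after its values were seen. Adamts12 measured 11.51 to 12.10 in the controls and 12.83, 12.31, 12.74 and 12.49 in shIRF7. Its difference was 0.89 (SE 0.17, limma adjusted p = 0.188), and within the replicates 1.02 and 0.72. Adam19 differed by 0.67 (limma adjusted p = 0.371), with 0.65 and 0.68 within the replicates, and Adam10, a sheddase, by 0.37.

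AP-1 and Ets factors, which act on promoters of the kind shown for Mmp3, had a median of -0.45 over 12 measured genes. Fosl1 and Jun, both AP-1 subunits, differed by -0.64 (limma adjusted p = 0.879) and -0.59 (limma adjusted p = 0.379). Jun was lower on every shIRF7 array (10.53 to 10.96) than on every control (11.05 to 11.47), and its differences within the replicates were -0.44 and -0.64. Fosl1 differed by 1.68 within replicate 1 and -2.35 within replicate 2. Among 15 cytokines and receptors that induce metalloproteinases the median was -0.21. Il1rap and Osmr, receptor chains for interleukin 1 and oncostatin M, differed by -0.46 (limma adjusted p = 0.555) and -0.44 (limma adjusted p = 0.846).

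Among 15 matrix substrates of these enzymes 12 differed below 0, where 9694 of 19505 genes did, with a median of -0.22. Col1a1, a chain of type I collagen, measured 16.29 to 16.99 in the controls and 15.56 to 15.80 in shIRF7, with no overlap. Its difference was -0.88 (SE 0.17, limma adjusted p = 0.187), and within the replicates -0.95 and -0.66. Col1a2, its partner chain, differed by -0.70 (limma adjusted p = 0.446), and Nid1, a basement membrane protein named after its values were seen, by -0.64. In both, too, all shIRF7 values lay below all controls, which makes 3 of the 15, where 2.8% of all genes did so.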

How the data were processed

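Total RNA of 8 samples was read on Affymetrix mouse arrays. Per the submitters' processing notes, the authors made the deposited log2 values by RMA with Expression Console version 1.4.1.46 (Affymetrix). Their scale was read from the values (1.66 to 18.95). For the array design, a genome build was not given in the sources used. Of 28846 probe sets 19572 had 1 symbol, and for 55 genes with several the one with the highest mean was kept. The 5222 negative control probe sets gave the background, as their 95th percentile and median per array. limma 3.58.1 in R 4.3.3 (lmFit, eBayes) was fitted to all 19505 genes with a mean per group (5 residual degrees of freedom), with both controls weighted equally and Benjamini-Hochberg adjustment at 0.05. Intervals are 95%. The fit was tested on simulated data with independent noise. That noise lacked the deviations shared by same-numbered control arrays, so the test does not cover them. The number of arrays limits the precision, and 0 value columns were left unused.

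Members and lists were chosen with earlier results of these data known. The genes named are the members, Irf7, markers, and per related list up to 4 genes past the threshold or otherwise the 2 of largest difference above background. For likeness, they are the 3 closest profiles to each of the 3 most variable members. Of 186 listed genes 172 matched by symbol and 14 did not. Motifs were searched in RefSeq promoters of GRCm38.p6. Alternatives were a filter on dim genes, trend and robust fitting, cyclic loess, the mean of probe sets, both controls as 1 group, a replicate block, shIRF7 replicates 2 and 3 averaged, and each array left out.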

Additional observations from a re-analysis of the deposited data

Results flagged for a closer look

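In shIRF7, replicate 1 lay apart from the other 3 arrays in 3 members by Dixon's ratio, the gap to the nearest value over the group's range, which exceeded the 95% critical value for 4 samples (chance alone flags about 5% of groups). The same array was past that value in 2.98% of all genes, and any shIRF7 array in 6.43%. Mmp2 measured 13.60 there (ratio 0.844), Mmp11 8.01 (ratio 0.847) and Mmp14 14.33 (ratio 0.880), each below the other shIRF7 arrays. These are not independent, since the same array is low in each. Across all genes the SD of its difference was 0.70 and 0.71 from shIRF7 replicates 2 and 3 and 0.54 from replicate 4. The SD was 0.32 between replicates 2 and 3, and 0.50 between replicate 4 and each of those. Irf7 was also lowest on shIRF7 replicate 1, at 4.42, and no relation between these values was tested.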

How the results depend on the processing

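In limma, 6 genes passed over all genes in shIRF7 against both controls, and 3 with a filter on dim genes, 3 with trend and robust fitting, 2 after cyclic loess, 28 with both controls as 1 group, 0 with a replicate block and 0 with shIRF7 replicates 2 and 3 averaged. Leaving out each array gave 0 to 28, the highest without shIRF7 replicate 1. Against scramble 1 gene passed, and 0 with the dim filter, trend and robust fitting, the block or the averaging, and 0 to 8 with arrays left out (8 without shIRF7 replicate 1). Against empty vector 0 passed (1139 at an unadjusted p under 0.05), and 0 to 3 with arrays left out. The members past the threshold there numbered 0 to 1, the 1 being Mmp3 without empty vector replicate 2. The causes were not tested.

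Deviations from group means on same-numbered arrays correlated at 0.76 between the control groups and at -0.31 to -0.16 between controls and shIRF7. These correlations do not settle whether the number marks pairs or a batch. Negative control medians differed alike between arrays numbered 1 and 2 in every group. Under the replicate block, with 2 residual degrees of freedom, 691 genes and 0 members had an unadjusted p under 0.05. The block turned Mmp9 against scramble to -0.25 and Mmp11 to -0.36, and averaging turned Mmp9 to -0.22.

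With arrays left out, differences that changed sign ran as follows. Against both controls, Mmp2 ran from -0.16 to 0.89, Mmp9 from -1.24 to 0.78 and Mmp11 from -1.22 to 1.06. Against scramble, Mmp9 ran from -0.22 to 1.21, Mmp10 from -0.21 to 0.015, Mmp11 from -0.67 to 1.76 and Timp2 from -0.56 to 0.014. Against empty vector, Mmp2 ran from -1.10 to 1.00, Mmp9 from -2.79 to 1.26, Mmp11 from -2.99 to 1.58, Mmp14 from -0.38 to 1.33, Timp1 from -1.30 to 0.35 and Timp2 from -0.88 to 0.17. For scramble against empty vector, Mmp2 ran from -1.89 to 0.21, Mmp3 from -5.66 to 0.52, Mmp9 from -3.10 to 0.96, Mmp11 from -3.53 to 1.04, Mmp13 from -0.78 to 0.0043, Mmp14 from -1.18 to 0.52, Timp1 from -0.16 to 1.49 and Timp2 from -0.60 to 0.44. Values under the negative control percentile limit Mmp10 and Mmp13 on all 8 arrays and Mmp3 and Mmp9 on all but 1.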

Other observations

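Lysosomal cathepsins, another class of matrix-degrading proteases, and their cystatin inhibitors had a median difference of 0.17 over 12 measured genes in shIRF7 against both controls, -0.58 within replicate 1 and 0.57 within replicate 2. Ctsh, an aminopeptidase cathepsin, measured 9.31 and 8.08 in empty vector, 8.70 and 7.64 in scramble, and 8.37, 9.68, 9.75 and 9.24 in shIRF7. It differed by 0.83 (limma adjusted p = 0.689). Replicate 1 alone gave -0.63 and replicate 2 alone 1.82. Cst3, the secreted inhibitor cystatin C, differed by -0.46 (limma adjusted p = 0.833).

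Some genes tracked the most variable members across arrays. Among 6532 other genes above background, Fgl2 was closest to Mmp9 (root mean square difference of centred log2 values 0.40, median over those genes 1.73), followed by Phyhd1 (0.62) and Serpina3n (0.63). Fgl2 measured 11.12 and 7.61 in empty vector, 7.86 and 7.54 in scramble, and 6.37, 10.29, 10.35 and 8.25 in shIRF7. Tmem140 was closest to Mmp11 (0.45, median 1.72 over 6531 genes), followed by Phyhd1 (0.56) and Ifitm1 (0.56). For Mmp3 the closest were Sema3b (1.05), Ccn3 (1.06) and Smpdl3a (1.15), with a median of 2.19. The profile of Mmp3 is largely its 1 high array, so closeness to it selects genes that are high there. These are descriptions over 8 arrays, which share whatever differed between the arrays.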
